A study of Mus musculus with 2 samples.

Results

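The 6 leukocyte miRNA genes Mir142b, Mir223, Mir146, Mir155, Mir150 and Mir146b were followed in small RNA libraries of the mouse facial prominences, among 1973 miRNA genes counted in all. They were taken by symbol, 5 of them from reads on the strand of the gene. Mir142b was taken from reads on its opposite strand, where it stands for Mir142, which is not analysed by a row of its own here. Both libraries came from strain B6NCrl at embryonic day 14.5, with no treatment, mutation or second group. They are biological replicates 1 and 2. The labels call each sample one face of one pup, taken on separate days, and at the same time give the sex as pooled male and female, so the number of embryos behind a library is not settled. The tissue is a whole block of mesenchyme, epithelium, muscle, cartilage and vessels, and the labels describe no removal of blood.

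White blood cells carry a small set of miRNAs, of which some are rare in other cells. Mir142 is made throughout the blood lineage, Mir223 rises in granulocytes and other myeloid cells, and Mir150 marks mature lymphocytes. Mir155 and the Mir146 pair are switched on when immune cells are activated through NF-kB. Mir155 then strengthens the response, while miR-146 damps it by acting on the signalling proteins Traf6 and Irak1. In the embryo, macrophages settle in the tissues early, and mature lymphocytes appear late.

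The sequences below are the mature miRNAs on which the identity of the counted genes rests, from RefSeq on build GRCm38.p6, 5′ to 3′, with the seed (bases 2 to 8, which pair with target mRNAs) in capitals. Mir150 is named only.
mmu-miR-142a-3p: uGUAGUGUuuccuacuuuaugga
mmu-miR-142a-5p: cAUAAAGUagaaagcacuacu
mmu-miR-142b: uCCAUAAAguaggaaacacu
mmu-miR-223-3p: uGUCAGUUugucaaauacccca
mmu-miR-146a-5p: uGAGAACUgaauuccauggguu
mmu-miR-146b-5p: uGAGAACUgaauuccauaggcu
mmu-miR-155-5p: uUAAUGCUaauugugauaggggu

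The seeds fell into 6 kinds over these 7 sequences. Only miR-146a-5p, from Mir146, and miR-146b-5p, from Mir146b, shared theirs, and no other mature mouse miRNA of the RefSeq table carried any of the 6 seeds. The miR-146 pair was identical at 20 of 22 bases. Counted from 1 at the 5′ end, miR-146b-5p differed from miR-146a-5p by G18A and U21C, so the first 17 bases were the same.

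The Mir142 locus gives a pair of hairpins from its 2 strands, shown here because the strand decides which gene a read belongs to, with the mature arms in capitals.
Mir142 hairpin: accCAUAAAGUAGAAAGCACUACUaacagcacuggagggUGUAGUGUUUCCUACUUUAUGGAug
Mir142b hairpin: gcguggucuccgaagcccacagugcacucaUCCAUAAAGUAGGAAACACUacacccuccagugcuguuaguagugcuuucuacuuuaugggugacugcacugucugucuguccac

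The whole Mir142 hairpin of 64 bases was found at bases 24 to 87 of the reverse complement of the Mir142b hairpin. The 20 bases of miR-142b were likewise the reverse complement of bases 4 to 23 of miR-142a-3p. Reads of Mir142 therefore fall on the opposite strand of Mir142b. In both libraries Mir142b had 0 counts on its own strand, which allows up to 3 counts. On the opposite strand it had 2256 counts in replicate 1 and 5469 in replicate 2. Of the 18 genes with a mean of at least 10 opposite-strand counts, 15 lay over another miRNA gene annotated on the other strand, and Mir142b was the 8th highest of the 18.

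On assembly mm10, Mir142b (ENSMUSG00000065420.2) lies at chr11:87756841-87756955 on the minus strand and Mir142 at chr11:87756864-87756927 on the plus strand, both within an intron of the noncoding gene Mir142hg. Mir223 (ENSMUSG00000076066.1) lies at chrX:96242817-96242926, plus strand, where it overlaps an exon of F630028O10Rik, a noncoding transcript of the same strand. Mir146 (ENSMUSG00000065601.1), which makes miR-146a, lies at chr11:43374397-43374461, minus strand, outside any other annotated gene. Mir155 (ENSMUSG00000065397.1) lies at chr16:84714140-84714204, plus strand, in an exon of its host transcript Mir155hg. Mir150 (ENSMUSG00000065495.1) lies at chr7:45121757-45121821, plus strand, outside any other annotated gene. Mir146b (ENSMUSG00000070127.2) lies at chr19:46342762-46342870, plus strand, in an intron of Mfsd13a. Leaving the Mir142 pair aside, the nearest other annotated miRNA gene lay 5097 bases away for Mir150 and at least 930649 bases away for the other 4.

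Libraries held 2719153 gene-strand miRNA counts in replicate 1 and 6602050 in replicate 2, and levels are given as CPM, the counts divided by these totals and scaled to a common depth. Markers of the labelled tissue were present: all 7 epithelial miRNA genes (52450 and 67435 CPM summed), all 4 mesenchymal ones (17643 and 12119 CPM), both cartilage genes (43454 and 41703 CPM) and the skeletal muscle gene Mir206 (11447 and 13094 CPM) were detected in replicate 1 and replicate 2. The 3 liver genes summed to 146 CPM in replicate 1 and 133 CPM in replicate 2, with Mir192 at 75.8 and 87.5 CPM, Mir194-2 at 57.4 and 40.1 CPM and Mir122 at 12.5 and 5.60 CPM. The counts are of reads and carry no molecular identifiers, so every interval below covers counting error only. A read spans a whole mature miRNA, so CPM was not divided by length, but ligation of adapters favours some miRNAs over others.

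Mir142, the pan-leukocyte miRNA read through Mir142b, stood highest of the 6. It had 829.7 CPM in replicate 1 (95% Wilson interval 796 to 865) and 828.4 CPM in replicate 2 (807 to 851). With total counts the libraries thus gave nearly the same level, with a mean of 829 ± 0.91 CPM (SD, n = 2). That SD lies below the counting error of either library, and the likeness depends on the scaling, as given below. Of the 1973 gene rows, 110 had a higher mean on the gene strand. That rank leaves out opposite-strand counts, among which Mir142b was the 8th highest of 18. The 2 genes closest to it over both libraries, by Euclidean distance in log2(CPM + 1), were Mir141, at 831 and 884 CPM (distance 0.0931), and Mir320, at 786 and 796 CPM (distance 0.0963).

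Mir223, the myeloid miRNA, came next and differed between the libraries. It had 1476 counts, or 543 CPM (516 to 571), in replicate 1 and 4686 counts, or 709.8 CPM (690 to 730), in replicate 2. Its mean was 626 ± 118 CPM (SD, n = 2), with 123 gene rows above it, and its intervals in the 2 libraries did not overlap. Mir543, at 599 and 662 CPM, and Mir34c, at 621 and 692 CPM, were nearest in level.

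The activation-linked genes stood lower. Mir146 had 257 counts in replicate 1 and 575 in replicate 2, which is 94.5 CPM (83.6 to 107) and 87.1 CPM (80.3 to 94.5), with a mean of 90.8 ± 5.25 CPM. Mir155 had 179 and 468 counts, which is 65.8 CPM (56.9 to 76.2) in replicate 1 and 70.9 CPM (64.7 to 77.6) in replicate 2, with a mean of 68.4 ± 3.58 CPM (SD, n = 2 each). For both genes the intervals of the 2 libraries overlapped. Nearest to Mir146 were Mir345, at 89.0 and 89.1 CPM, and Mir675, at 90.1 and 82.9 CPM. Nearest to Mir155 were Mir331, at 80.2 and 66.6 CPM, and Mir301b, at 75.8 and 58.9 CPM.

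Mir150, the lymphocyte miRNA, was the lowest of the 5 genes found well above the detection floor. It had 66 counts, or 24.3 CPM (19.1 to 30.9), in replicate 1 and 176 counts, or 26.7 CPM (23.0 to 30.9), in replicate 2, a mean of 25.5 ± 1.69 CPM (SD, n = 2). A total of 259 gene rows had a higher mean, and the nearest genes were Mir30c-2, at 28.3 and 25.9 CPM, and Mir19a, at 29.8 and 27.1 CPM. Mir146b was not detectable at this depth beyond 1 read. It had 0 counts in replicate 1, where a count of 0 allows up to 1.10 CPM. In replicate 2 it had 1 count, or 0.151 CPM (0.0267 to 0.858). It shared that level with 1431 gene rows of at most 3 counts over both libraries (Mir146b included), so no nearest gene is named.

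**Figure D1:**
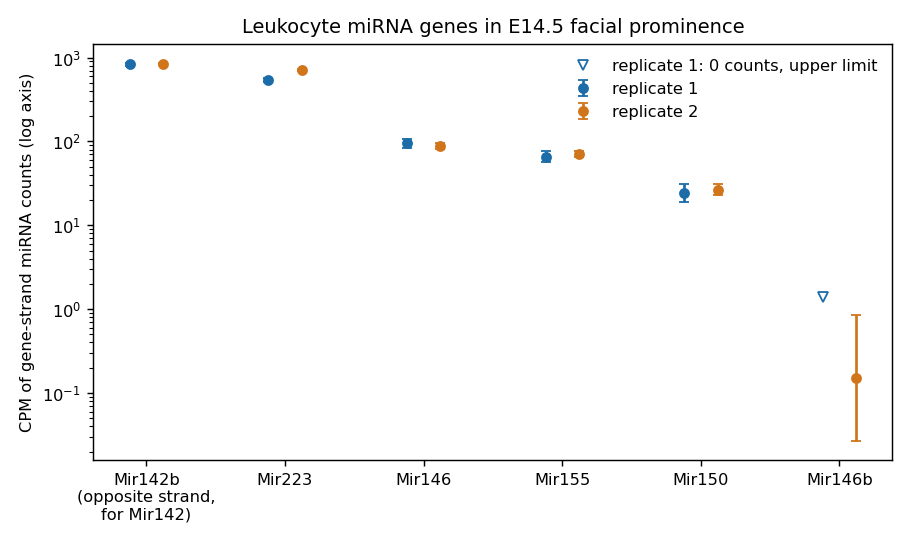
Level of each leukocyte miRNA gene in CPM on a log axis, with points for replicate 1 and replicate 2, bars for 95% Wilson intervals, and an open triangle for the upper limit where the count was 0. Mir142b and Mir223 sit between 543 and 829.7 CPM, Mir146, Mir155 and Mir150 between 24.3 and 94.5 CPM, and Mir146b at the floor.

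The order Mir142b, Mir223, Mir146, Mir155, Mir150, Mir146b was the same in both libraries. In each of the 5 neighbouring pairs the levels of the 2 genes did not overlap over the libraries, and the exact binomial interval of their counts lay on one side of equality in both. The closest pairs were Mir146 over Mir155, at a count ratio of 1.44 (1.18 to 1.75) in replicate 1 and 1.23 (1.09 to 1.39) in replicate 2, and Mir142b over Mir223. With replicate 2 thinned to the depth of replicate 1, Mir146 over Mir155 stood at 1.21 (0.997 to 1.47) there, which no longer separates them. The other 4 pairs stayed apart. The thinning was 1 random draw, and the lower limit lies so near 1 that another draw could separate Mir146 from Mir155. These orders compare counted reads, and differences in ligation between miRNAs were not tested.

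The widest gap among the 5 detected genes lay below Mir223, which had 5.74 times the counts of Mir146 in replicate 1 (5.03 to 6.58) and 8.15 times in replicate 2 (7.47 to 8.90). Together the 6 genes held 4234 counts in replicate 1 and 11375 in replicate 2. Set against the gene-strand miRNA totals this is 0.156% and 0.172%, though those totals do not include the opposite-strand counts of Mir142b. The sum was 1557 CPM (1511 to 1605) in replicate 1 and 1723 CPM (1692 to 1755) in replicate 2, a mean of 1640 ± 117 CPM (SD, n = 2). Mir142b and Mir223 made up 88.1% of it in replicate 1 and 89.3% in replicate 2. Mir150 kept a share of 1.56% (1.23 to 1.98) and 1.55% (1.34 to 1.79). In a whole tissue, fewer cells of a type and less RNA per cell cannot be told apart. Which cells the counts of the 6 genes came from was not tested.

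**Figure D2:**
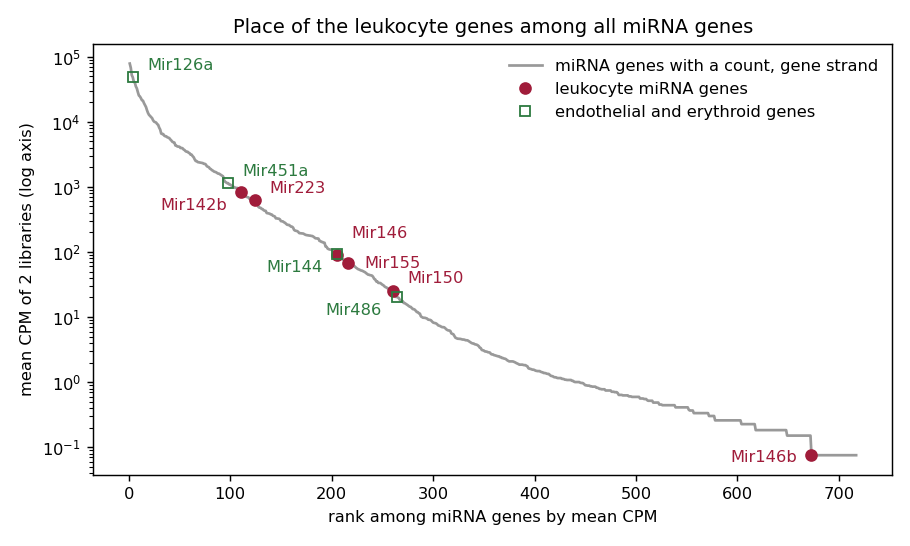
Mean CPM of the 2 libraries on a log axis against rank, for the 717 miRNA genes with at least 1 gene-strand count (line), with the leukocyte genes as filled circles and the erythroid and endothelial genes as open squares. Mir142b and Mir223 lie just below the erythroid gene Mir451a, and the endothelial gene Mir126a lies near the top of the curve.

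Set against other miRNAs of blood and vessels, the leukocyte sum lay just above the erythroid one and far below the endothelial gene. The 3 erythroid genes summed to 1093 CPM in replicate 1 and 1406 CPM in replicate 2, so the leukocyte sum was 1.42 and 1.23 times as high. This order rests on Mir142b: without it the leukocyte sum was 727 CPM in replicate 1 and 895 CPM in replicate 2, below the erythroid sum. Most of the erythroid sum was Mir451a, a miRNA of maturing red cells, at 986 and 1288 CPM. Its cluster partner Mir144 had 86.1 and 98.3 CPM and Mir486 had 21.3 and 19.5 CPM. Mir126a, carried by the endothelial gene Egfl7, had 41674 and 54165 CPM, and the leukocyte sum was 3.74% and 3.18% of it in replicate 1 and replicate 2.

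Further miRNAs with known roles in immune cells were present, and most are also made in other cells. In the myeloid and macrophage list all 4 genes were detected. Mir511, which lies in the macrophage mannose receptor gene, had 7.72 CPM in replicate 1 and 6.51 CPM in replicate 2, and Mir147, induced in activated macrophages, had 4.05 and 3.94 CPM. The widely expressed Mir22, at 7676 and 10742 CPM, and Mir21a, at 7103 and 5825 CPM, made up nearly all of that list. In the lymphoid list all 6 genes were detected, led by Mir342 at 2365 and 2394 CPM and Mir181a-1 at 1668 and 1765 CPM. In the activation-induced list all 4 were detected, led by Mir221 at 241 and 247 CPM and Mir132 at 165 and 159 CPM. Mir511 and Mir147, tied to macrophages, thus stood below Mir150.

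The 2 libraries were then compared gene by gene with an exact two-sided binomial test, given TMM-scaled library sizes (edgeR) and Benjamini-Hochberg adjustment over all 390 features tested, 372 on the gene strand and 18 on the opposite strand. The test compares 2 libraries and not conditions, and with 2 libraries no exact test over samples can give a p below 0.5. Of the 5 leukocyte genes tested, 2 passed at an adjusted p of 0.05 (Mir223 and Mir142b), both lower in replicate 1. Over all features 204 of 390 (52.3%) passed, 108 (27.7%) of them lower in replicate 1, so the count among the leukocyte genes lies near the background and is no result about them. The median log2 ratio, replicate 1 over replicate 2, was -0.23 for the 5 genes and 0.0080 for all features. Mir146b, with 1 read in all, was below the minimum of 10 mean counts.

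Mir223 differed most. Its log2 ratio was -0.51 with a counting SE of 0.043 (exact binomial test, adjusted p = 1.07e-33), and 18.7% of the features had a larger ratio in either direction. Mir142b had a log2 ratio of -0.12 (SE 0.036, exact binomial test, adjusted p = 0.00156), and 73.8% of features had a larger one. That call rests on the scaling. TMM lowers every ratio by 0.13 relative to total counts, and with total counts Mir142b stood at 0.0024 (adjusted p = 0.983) while Mir223 stayed lower at -0.39 (adjusted p = 1.86e-19). With total counts 204 of 390 features (52.3%) passed again, but 65 (16.7%) rather than 108 were lower in replicate 1 and 139 rather than 96 were higher.

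The other 3 genes did not pass with TMM scaling. Mir155 had a log2 ratio of -0.23 (SE 0.13, exact binomial test, adjusted p = 0.115), and it passed with DESeq2 size factors at -0.29 (adjusted p = 0.0456). Mir150 had -0.25 (SE 0.21, adjusted p = 0.341). Mir146 had -0.0060 (SE 0.11, adjusted p = 1.0), which turned to 0.12 with total counts (adjusted p = 0.392). For Mir150, with 66 and 176 counts, the depth leaves an SE nearly as large as the ratio.

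**Figure D3:**
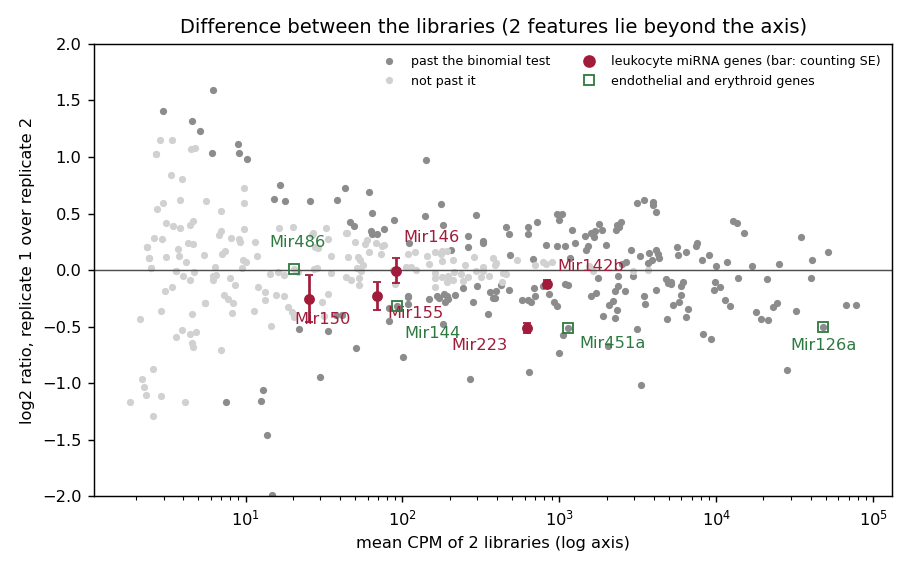
Log2 ratio of replicate 1 over replicate 2 with TMM scaling against mean CPM on a log axis, for the 390 tested features (dark grey, past the exact binomial test; light grey, not past it), with the leukocyte genes as filled circles with counting SE and erythroid and endothelial genes as open squares. Mir223, Mir451a and Mir126a lie at about the same ratio near -0.51, and 2 features lie beyond the plotted range of 2.

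Mir223 and Mir142b therefore did not keep the same proportion in the 2 libraries, and this holds under any scaling. The count ratio of Mir142b to Mir223 was 1.53 in replicate 1 (95% exact binomial interval 1.43 to 1.63) and 1.17 in replicate 2 (1.12 to 1.21), and the intervals did not overlap. Mir155 to Mir146 stood at 0.696 (0.572 to 0.846) in replicate 1 and 0.814 (0.719 to 0.921) in replicate 2, with overlapping intervals.

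Markers of several cell types were lower in replicate 1 together with Mir223, and others were higher. The log2 ratios, replicate 1 over replicate 2, were -0.51 for Mir451a (SE 0.032) and -0.50 for Mir126a (SE 0.0049), both past the exact binomial test and lower in replicate 1. Mir144 had -0.32 (SE 0.11, exact binomial test, adjusted p = 0.00813), and Mir486 had 0.0078 (SE 0.23, adjusted p = 1.0), so that 2 of the 3 erythroid genes were lower. Mir144 did not pass with total counts (-0.19, adjusted p = 0.141). Of the 7 epithelial genes 5 were lower, with Mir203 at -0.88, 1 was higher and 1 did not pass, and Mir206 of skeletal muscle was lower at -0.32. With total counts Mir200c, 1 of those 5, stood at 0.0020 and did not pass. Mir200a, which did not pass with TMM scaling, was then higher at 0.20 (exact binomial test, adjusted p = 3.35e-07). Of the 4 mesenchymal genes 2 were higher with TMM scaling, with Mir214 at 0.42, and 0 were lower. With total counts Mir199a-2 was higher too, at 0.24 (exact binomial test, adjusted p = 0.00026). By the same test with TMM scaling, 108 of all 390 features (27.7%) were lower in replicate 1 and 96 were higher. The test covers counting error only, so genes with many counts pass at small ratios. On the CPM scale, with total counts, the log2 ratio of the summed levels was -0.36 for the erythroid and -0.36 for the epithelial list, -0.38 for Mir126a, 0.54 for the mesenchymal list and -0.15 for the leukocyte genes. Of the 390 features, 7 lay within 0.02 of the ratio of Mir223 (itself included). They were Mir34b, Mir126a, Mir96, Mir451a, Mir802, Mir8112 and Mir223, which are not of 1 cell type. The part of red cells, vessels, epithelium or muscle in the difference at Mir223 was not tested.

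Count ratios within a library restate these differences without any scaling. The pairs were chosen after the values were seen and are given as a description. Mir223 had 0.551 counts per count of Mir451a in both replicate 1 (0.516 to 0.587) and replicate 2 (0.532 to 0.571). Against Mir126a it stood at 1.30% in replicate 1 (1.24 to 1.37) and 1.31% in replicate 2 (1.27 to 1.35). Against Mir144, the other called erythroid gene, it stood at 6.31 (5.49 to 7.27) in replicate 1 and 7.22 (6.65 to 7.85) in replicate 2, with overlapping intervals. Mir486, the remaining erythroid gene, was not paired with Mir223. It had 58 counts in replicate 1 and 129 in replicate 2, and its log2 ratio of 0.0078 was unlike the -0.51 of Mir223. For Mir142b the ratio to Mir451a was 0.842 (0.796 to 0.891) in replicate 1 and 0.643 (0.622 to 0.665) in replicate 2.

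**Figure D4:**
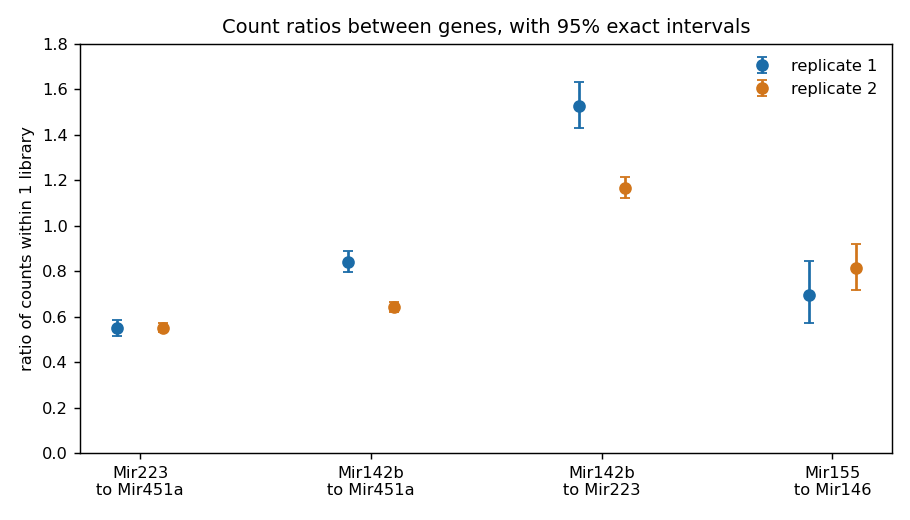
Ratio of the counts of a pair of genes within each library, with 95% exact binomial intervals, for replicate 1 and replicate 2. Mir223 to Mir451a is 0.551 in both, while Mir142b to Mir451a and Mir142b to Mir223 are higher in replicate 1 with intervals that do not overlap.

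Other immune-linked genes showed no common direction between the libraries. In the myeloid and macrophage list Mir21a was higher in replicate 1 (log2 ratio 0.16) and Mir22 lower (-0.61), and Mir511 and Mir147 did not pass. In the lymphoid list Mir342 (-0.14) and Mir181a-1 (-0.21) were lower, Mir181b-2 (0.44) was higher and 3 did not pass. In the activation-induced list Mir221 was lower (-0.16, exact binomial test, adjusted p = 0.0298) and the other 3 did not pass. Of the 3 blood progenitor genes tested, Mir125a and Mir99b were lower in replicate 1. Mir196b was higher by 4.73, at 1044 CPM in replicate 1 and 35.9 CPM in replicate 2. Mirlet7e, the other gene of that list, had no row of its own. Mir99b had 16479 and 19527 CPM and Mir125a had 5921 and 6001 CPM in replicate 1 and replicate 2. Each thus stood above the summed level of the 6 leukocyte genes, and which cells their counts came from was not tested. A whole tissue does not show which cell type lies behind the difference at Mir196b, and this was not tested. With total counts Mir342 (-0.017), Mir221 (-0.036) and Mir125a (-0.019) no longer passed. Median log2 ratios were 0.044, 0.10, -0.055 and -0.14 for these 4 lists, beside 0.0080 for all features. With TMM scaling, 204 of all 390 features (52.3%) passed.

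Mir142b and Mir142 share their locus, as shown above. Of the other genes, Mir223, Mir155 and Mir150 shared no stretch of 20 bases with another annotated miRNA gene on either strand. Mir146 and Mir146b shared a run of 21 bases in their hairpins, so a read confined to it could have been set aside as placed at several positions, and the counts of Mir146 and Mir146b are uncertain to that extent. Their mature miRNAs share a run of 17 bases, shown above, and the last 5 bases hold both differences. Hairpin GC content was lowest for Mir146, at 40.0%, and highest for Mir150, at 63.1%, around a median of 51.0% over 1894 genes.

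**Figure D5:**
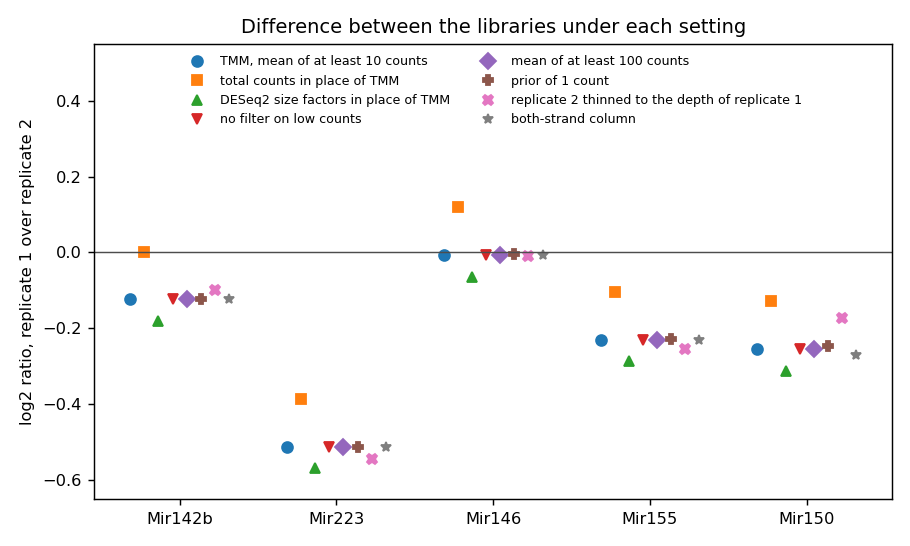
Log2 ratio of replicate 1 over replicate 2 for the 5 tested genes under the main setting and 7 alternatives, with a symbol for each setting. Mir223 lies below 0 at each of the 8 settings, from -0.57 to -0.39, while Mir142b and Mir146 cross 0 with total counts. The filters, the prior and the both-strand column leave the counts nearly unchanged and could move the ratios little.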

How the data were processed

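MicroRNA-seq was deposited for 2 biological replicates of 1 group. Each deposited file holds unnormalised counts of 1 library, made on assembly mm10 with annotation GENCODE M4, as the metadata text beside them states. The aligner is not given in the sources used here. Columns carry no names. By their values they are both strands, gene strand and opposite strand, and 4 summary rows (unmapped 16.6% and 17.6%, several positions 29.8% and 28.5%, no gene on either strand 3.00% and 2.38% of reads in replicate 1 and replicate 2) were left out.

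Symbols and positions came from GENCODE M21 by identifier (1894 of 1973 matched). CPM used gene-strand totals. Library sizes were TMM-scaled over genes with a mean of at least 10 counts (edgeR 4.0.16), and an exact binomial test (scipy 1.17.1) with Benjamini-Hochberg adjustment ran over all genes and strands with that mean. Log2 ratios used a prior of 0.5 counts. The step was run on simulated counts that held counting error only, which cannot test how it behaves with spread between samples. Alternatives were total counts, DESeq2 1.42.0 size factors, other filters, prior, column, depth and denominator.

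The members and lists were chosen with earlier results of these data known. Named genes were the 6 members, the 2 genes nearest to each in log2(CPM + 1) over both libraries, genes sharing a seed, and the 2 highest of each marker list. Mir511, Mir147, Mir144, Mir486, Mir181b-2, Mir196b, Mir122, Mir200a, Mir200c, Mir199a-2, Mir34b, Mir96, Mir802 and Mir8112 and the gene pairs were named after their values were seen.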

Additional observations from a re-analysis of the deposited data

How the results depend on the processing

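Mir223 stayed lower in replicate 1 under each of the 7 alternatives, with log2 ratios from -0.57 to -0.39 (exact binomial test, adjusted p from 1.19e-41 to 1.86e-19). The filters, the prior and the both-strand column could hardly move its ratio, which stayed at -0.51. Mir223 had 0 counts on the other strand. Only the scalings and the thinning tested it, at -0.39 with total counts, -0.57 with DESeq2 size factors and -0.54 with replicate 2 thinned. With total counts in place of TMM, 1 of the leukocyte genes passed instead of 2, Mir142b turned to 0.0024 and Mir146 to 0.12, because the scaling moves all ratios by the same amount. Adjusted p over the alternatives ran from 1.42e-06 to 0.983 for Mir142b and from 0.0456 to 0.528 for Mir155. The number of features past the test stayed within 1.5 times the main count in every alternative run, but its share of the features tested did not. It was 204 of 390 in the main run, 190 of 781 with no filter and 192 of 272 with a mean of at least 100 counts. Of the 5 neighbouring pairs in the order of the 6 genes, 4 stayed apart with replicate 2 thinned in 1 random draw. All 5 did with both strands counted. That column adds only 2 counts to the 6 genes, at Mir150 in replicate 2, so it could not test the order. The summed level of 1640 CPM was 802 CPM with all reads as the denominator, 811 CPM leaving out Mir142b and 1014 CPM leaving out Mir223, and ranged from 1557 to 1723 CPM when either replicate was left out. A test between libraries has no value with 1 library left. No paired analysis was possible because there is 1 group. Depth limits Mir150 and Mir146b most.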

Other observations

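The opposite-strand column held more than Mir142. Of the 18 genes with a mean of at least 10 counts there, Gm25301 was highest, at 37998 counts in replicate 1 and 89005 in replicate 2, over Mir378a. Gm24083 had 7727 and 16403 counts over Mir191, a miRNA abundant in blood cells and many other tissues. Of the 15 that lie over another annotated miRNA gene, Mir142b was the only one of the leukocyte set. Mir126a and Mir486, used above as endothelial and erythroid genes, also had opposite-strand counts, 14 in replicate 1 and 39 in replicate 2 for Mir126a, and 10 and 23 for Mir486. On their own strands Mir126a had 113317 and 357598 counts and Mir486 had 58 and 129.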
